A study of Mus musculus with 8 samples.

Results

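Transcripts of the lysosomal cathepsins, of legumain and of their secreted inhibitor cystatin C were measured by RNA sequencing in mouse regulatory dendritic cells (labelled diffDC) after knockdown of Suclg2. The set held 10 genes (Ctsa, Ctsb, Ctsc, Ctsd, Ctsh, Ctsl, Ctss, Ctsz, Lgmn and Cst3), taken by symbol, and all 10 were found among the 15465 genes of the deposited table. The design compared 4 samples transfected with si-Suclg2 and 4 transfected with the control siRNA si-nc. All cells were labelled wild type and of the C57/BL6 strain. Bone marrow cells spent 6 days in medium with IL-4 and GM-CSF and a further 24 hours with lipopolysaccharide (LPS), CD11c+ cells were taken with beads, and these spent 9 days on spleen stroma cells before transfection. Both groups therefore shared the LPS treatment and the coculture. How long after transfection the cells were collected, which siRNA sequences were used and whether replicates were separate animals or cultures is not given in the sources used here. P-values therefore measure only the spread between these samples, which may be technical.

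Cathepsins are proteases of endosomes and lysosomes, made as inactive precursors and activated by cleavage at low pH. Most are cysteine proteases of the papain family, whereas cathepsin D is an aspartic protease and cathepsin A a serine carboxypeptidase. In dendritic cells they degrade internalised protein and trim the invariant chain that blocks the MHC class II groove. Legumain cuts after asparagine residues and takes part in the maturation of several cathepsins, and cystatins block the active site of the cysteine proteases.

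Suclg2, the target of the siRNA, had 2.23, 2.30, 2.76 and 2.61 FPKM in the si-Suclg2 samples (replicates 1 to 4), against 4.68, 4.69, 4.56 and 4.43 FPKM in the si-nc samples. FPKM is a level per transcript length and library size; the deposited header names no unit, and FPKM was inferred from the values. Every si-Suclg2 sample was below every si-nc sample, and 53.9% of the mean level remained. Summed FPKM per sample ran between 506241 and 539290, and 0 pairs of samples held identical values. Of the dendritic cell markers, Itgax (CD11c) was at 12.6 ± 0.958 FPKM with si-Suclg2 and 20.2 ± 2.84 FPKM with si-nc (SD, n = 4 each). Clec10a was at 4.18 ± 0.136 and 12.6 ± 4.62 FPKM, in the same order. Both were lower by the test below (limma adjusted p = 0.00127 and 0.00141). Batf3 went the other way, at 2.06 ± 0.54 FPKM with si-Suclg2 and 1.21 ± 0.498 FPKM with si-nc. It passed only with the replicate number as a block (limma adjusted p = 0.0675 without and 0.00712 with the block). Ccr7 did not pass (limma adjusted p = 0.56). Flt3, Zbtb46 and Clec9a stayed under 1 FPKM in every sample, and Xcr1, Cd209a and Siglech were not listed. Summed over the 7 listed of 10 dendritic cell markers, the level was 22.5 to 24.8 FPKM with si-Suclg2 and 35.6 to 44.6 FPKM with si-nc. The 12 macrophage and monocyte markers summed to 22565 to 27332 FPKM with si-Suclg2 and 27887 to 35087 FPKM with si-nc. These sums mostly follow Lyz2 and Apoe, the most abundant of the 12. Lyz2 had a mean of 7455 FPKM with si-Suclg2 and 10384 with si-nc, and Apoe 6433 and 9883. The median log2 difference over the 12 was 0.06. By the test below 3 were higher (Adgre1, Fcgr1 and Ly6c2) and 4 lower (Csf1r, Lyz2, Cd68 and Apoe). With the replicate number as a block there were 4 each (C1qa, adjusted p = 0.361 by limma without and 0.0136 with the block). Markers of T, B and NK cells summed to under 1 FPKM in every sample, of neutrophils to 2.43 to 4.18 FPKM with si-Suclg2 and 1.76 to 4.31 with si-nc, and of mast cells and basophils to 4.66 to 9.8 and 5.01 to 7.13. Of the endothelial markers Kdr had 20.8 to 30.6 FPKM with si-Suclg2 and 20.4 to 28.6 FPKM with si-nc, while Cdh5, Tie1 and Tek stayed under 1 FPKM in every sample. The part of these markers in the results was not tested. In bulk samples such as these, fewer cells of a type and less RNA per cell cannot be told apart.

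Across the set, most of the abundant proteases and cystatin C were lower with si-Suclg2, while cathepsin C and legumain were higher. Tested with limma across all 10176 genes with a mean of at least 1 FPKM in a group, 2 of the 10 genes rose (Ctsc and Lgmn), 5 fell (Ctsb, Ctsz, Ctsd, Ctsa and Cst3) and 3 did not pass (Ctsh, Ctsl and Ctss). The threshold was a Benjamini-Hochberg adjusted p of 0.05. Of all genes tested, 26.9% were called, 12.0% as higher and 14.9% as lower. The median log2 difference over the 10 genes was -0.24, beside -0.03 over all genes tested. Each difference is si-Suclg2 minus si-nc on log2(FPKM + 1). For 8 of the 10 genes the groups stood apart without overlap, 2 higher and 6 lower with si-Suclg2, whereas 29.6% of all tested genes had groups that did not overlap (13.2% higher and 16.4% lower). These differences were small in size: apart from Ctsc, the ratios of mean FPKM lay between 0.788 and 1.15.

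**Figure D1:**
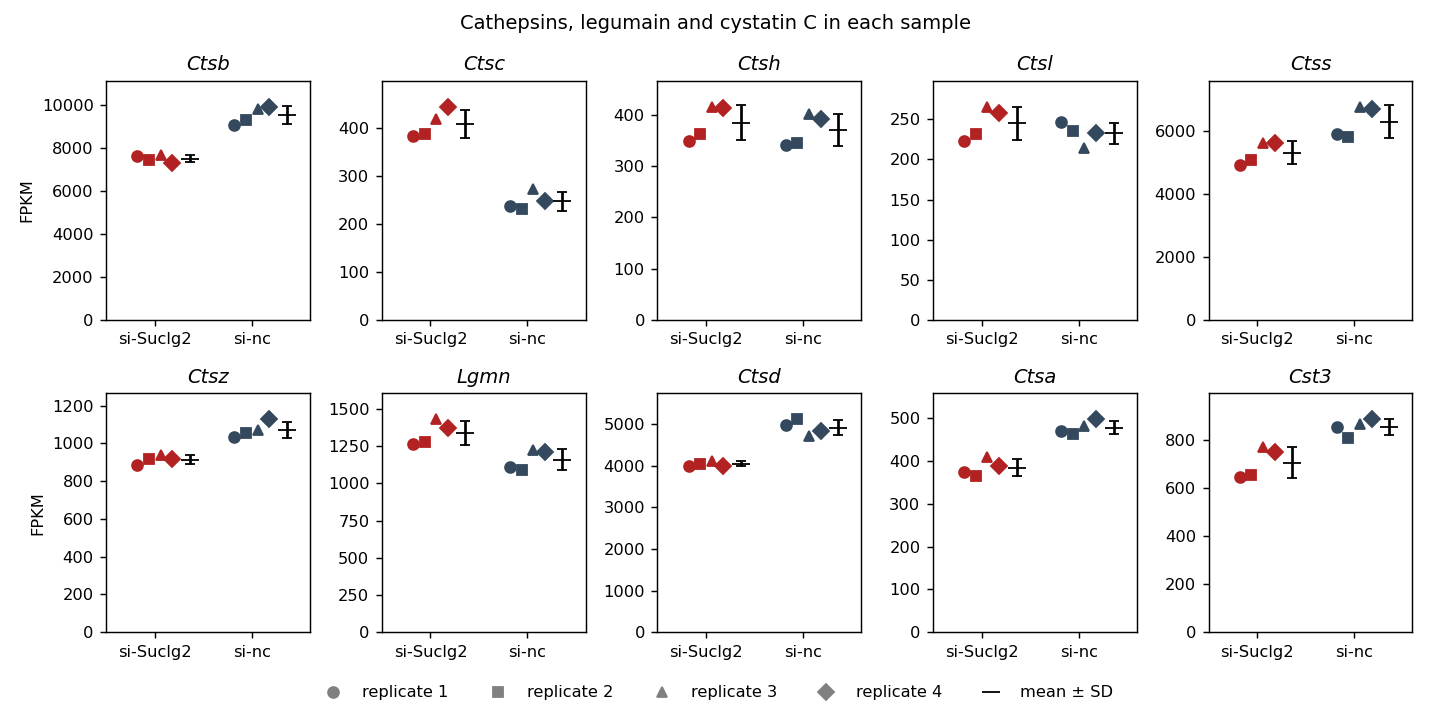
FPKM of each of the 10 genes (vertical axes, starting at 0) in the 4 si-Suclg2 samples (red, left) and the 4 si-nc samples (blue, right), with the mean and SD beside the points. Ctsc and Lgmn lie higher in all si-Suclg2 samples, Ctsh and Ctsl overlap between groups, and the other 6 lie lower.

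Cathepsin C, an aminopeptidase that removes dipeptides and activates granule serine proteases, showed the largest difference of the set. Ctsc (gene ID 13032; GRCm38 chromosome 7, 88278085 to 88310888, plus strand, protein-coding) had 383, 387, 419 and 445 FPKM in si-Suclg2 replicates 1 to 4, against 237, 230.1, 274 and 248 FPKM in si-nc replicates 1 to 4. Every si-Suclg2 sample was above every si-nc sample. The mean was 409 ± 29.0 FPKM with si-Suclg2 and 247 ± 19.2 FPKM with si-nc (SD, n = 4 each), a ratio of 1.65. The log2 difference was 0.72 ± 0.068 (SE; limma adjusted p = 8.31e-05), and it stayed between 0.68 and 0.77 when any single sample was left out. With replicates 1 and 2 alone it was 0.72 and with replicates 3 and 4 alone 0.73.

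Legumain, the asparaginyl endopeptidase, was the other gene that rose. Lgmn (gene ID 19141; chromosome 12, 102394084 to 102439813, minus strand, protein-coding) had 1267, 1281, 1433 and 1372 FPKM in the si-Suclg2 samples, against 1111, 1089, 1227 and 1209 FPKM in the si-nc samples. All si-Suclg2 samples were above all si-nc samples, and the ratio of means was 1.15. The log2 difference was 0.21 ± 0.063 (SE; limma adjusted p = 0.0352). It no longer passed without si-Suclg2 replicate 3 or 4 or si-nc replicate 1 or 2 (limma adjusted p = 0.0934, 0.088, 0.0912 and 0.0975), nor without the filter on low values (0.0823).

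Cathepsin B, which acts both inside chains and as a carboxydipeptidase, was the most abundant of the 10 and ranked 5 of all genes in the table with si-Suclg2 and 6 with si-nc. Ctsb (gene ID 13030; chromosome 14, 63122462 to 63145923, plus strand, protein-coding) had 7648, 7450.5, 7665 and 7299.7 FPKM with si-Suclg2, against 9076, 9325, 9831 and 9936 FPKM with si-nc. Every si-Suclg2 sample was lower than every si-nc sample, and the si-Suclg2 samples lay close together. The log2 difference was -0.34 ± 0.065 (SE; limma adjusted p = 0.0041). Quantile normalization, which replaces values by rank, moved it to -0.02 (limma adjusted p = 0.777), and without the filter on low values the call was lost at the same difference (SE 0.14, limma adjusted p = 0.132).

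Cathepsin S, the protease best known for the late steps of invariant chain trimming in dendritic cells, followed in abundance. Ctss (gene ID 13040; chromosome 3, 95526786 to 95556403, plus strand, protein-coding) had 4911, 5084.5, 5607 and 5636 FPKM with si-Suclg2, against 5921, 5808, 6778 and 6709 FPKM with si-nc. The groups did not overlap, and in both groups replicates 3 and 4 were above replicates 1 and 2. The log2 difference of -0.25 ± 0.082 (SE) missed the threshold (limma adjusted p = 0.0505). With the replicate number as a block it passed (log2 difference -0.25 ± 0.046 SE, limma adjusted p = 0.00338), in a fit that called 40.5% of all genes and 22.5% as lower.

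Cathepsin Z, a lysosomal carboxypeptidase also called cathepsin X, was lower too. Ctsz (gene ID 64138; chromosome 2, 174427493 to 174439039, minus strand, protein-coding) had 886, 915, 939.7 and 917 FPKM with si-Suclg2, against 1033, 1053, 1071 and 1129 FPKM with si-nc. The groups were separate, with a ratio of means of 0.853 and a log2 difference of -0.23 ± 0.047 (SE; limma adjusted p = 0.00611).

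Cathepsin H, an aminopeptidase, and cathepsin L, an endopeptidase that trims the invariant chain in thymic epithelium, did not pass the test. Ctsh (gene ID 13036; chromosome 9, 90054152 to 90076089, plus strand, protein-coding) had 349, 363, 416 and 414 FPKM with si-Suclg2, against 342, 345, 401 and 392.3 FPKM with si-nc. Each si-Suclg2 sample was slightly above the si-nc sample of the same number, but the groups overlapped (log2 difference 0.06 ± 0.078 SE, limma adjusted p = 0.637). Of all tested genes, 54.3% had the same sign in all 4 same-numbered pairs. Ctsl (gene ID 13039; chromosome 13, 64359337 to 64370890, minus strand, protein-coding) had 224, 232, 266 and 258 FPKM with si-Suclg2, against 247, 235, 215 and 233 FPKM with si-nc. Here the order changed with the replicate number: replicates 1 and 2 were lower with si-Suclg2 and replicates 3 and 4 higher. The log2 difference was 0.07 ± 0.067 (SE; limma adjusted p = 0.465), -0.08 in replicates 1 and 2 alone (limma adjusted p = 0.156) and 0.23 in replicates 3 and 4 alone (limma adjusted p = 0.0119). The change of 0.31 between these differences did not pass as an interaction (limma adjusted p = 0.0739), a test that called 103 of 10176 genes.

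Cathepsin D, the main aspartic protease of lysosomes, and cathepsin A, a serine carboxypeptidase that also protects beta-galactosidase and neuraminidase, both fell. Ctsd (gene ID 13033; chromosome 7, 142375911 to 142388038, minus strand, protein-coding) had 4002, 4054, 4125 and 4003 FPKM with si-Suclg2, against 4983, 5127, 4728 and 4829 FPKM with si-nc. The groups did not overlap (log2 difference -0.28 ± 0.056 SE, limma adjusted p = 0.00527), but without the filter on low values the call was lost (SE 0.095, limma adjusted p = 0.0842). Ctsa (gene ID 19025; chromosome 2, 164832873 to 164841032, plus strand, protein-coding) had 374, 366, 411 and 388 FPKM with si-Suclg2, against 471, 463, 482 and 499 FPKM with si-nc. It was lower in every si-Suclg2 sample, with a ratio of means of 0.804 (log2 difference -0.32 ± 0.049 SE, limma adjusted p = 0.00135). Among the enzymes that cathepsin A protects, the beta-galactosidase gene Glb1 fell to 34.3 ± 0.840 FPKM with si-Suclg2, against 41.4 ± 0.766 FPKM with si-nc (SD, n = 4 each; limma adjusted p = 0.000843). The neuraminidase gene Neu1 did not pass (log2 difference -0.05, limma adjusted p = 0.515).

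Cystatin C, the secreted inhibitor of the cysteine cathepsins, fell as well. Cst3 (gene ID 13010; chromosome 2, 148871722 to 148875692, minus strand, protein-coding) had 644, 653, 770.3 and 751 FPKM with si-Suclg2, against 852, 808, 866 and 887 FPKM with si-nc. The groups did not overlap, and in both groups replicates 3 and 4 were higher than replicates 1 and 2. This step was 0.23 on the log2 scale with si-Suclg2 and 0.08 with si-nc. The log2 difference was -0.28 ± 0.069 (SE; limma adjusted p = 0.0148).

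**Figure D2:**
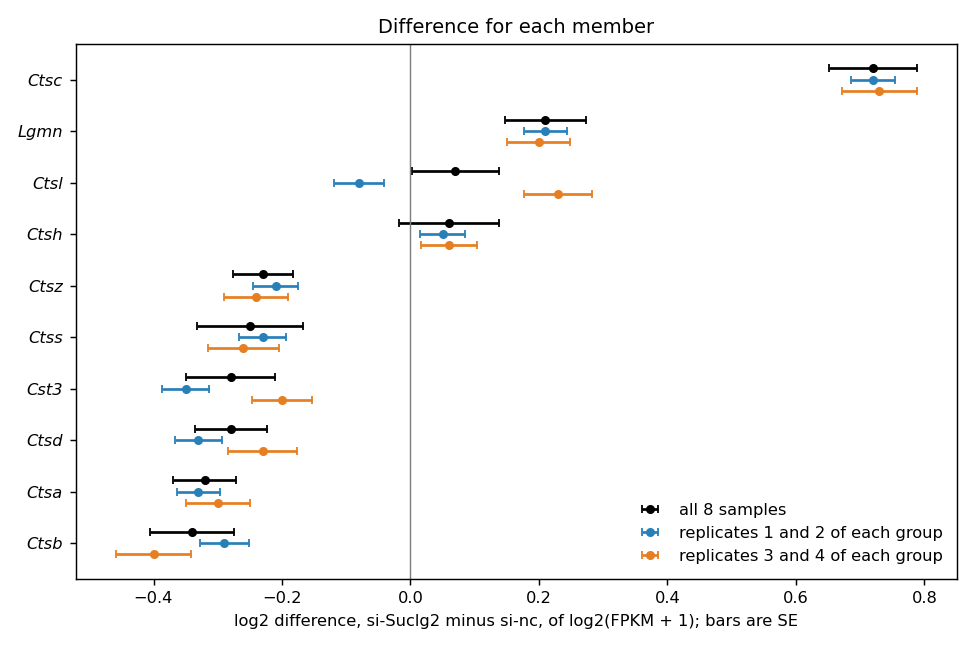
Log2 difference of log2(FPKM + 1), si-Suclg2 minus si-nc (horizontal axis), with SE bars, for all 8 samples and for replicates 1 and 2 or 3 and 4 of each group alone. Ctsl lies on opposite sides of 0 in the 2 subsets (-0.08 and 0.23), and the other 9 genes keep their side.

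RefSeq promoter windows (GRCm38.p6) were matched by symbol for 8 of the 10 genes, not for Ctsb and Ctsh. The 250 bases before each start site were searched on both strands for CACGTG (the core bound by TFEB-family and other E-box factors), GAGGAAGT (a PU.1-type motif) and for a pair of GAAA runs with any pair of bases between them (an interferon-stimulated response type motif); none of the matches found overlapped another motif. The 8 genes had 10 windows, as Ctsa and Lgmn had a further start site. CACGTG was present in a window of 4 of the 8 genes (Ctsa, Ctsd, Lgmn and Ctsl). Over all 32851 windows of this length the share was 6.02%, which counts single windows and not genes. It occurred both in genes that fell and in Lgmn, which rose. GAGGAAGT was found for Ctsc only, and in 2.44% of all windows, and the paired GAAA motif for Ctss only, as GAAACCGAAA, and in 2.98% of all windows. The stretches below lie outside annotated exons and are shown because they hold these matches, in capitals. They are Ctsc at chr7:88277835-88278084 (plus strand), Ctss at chr3:95526536-95526785 (plus strand), the Lgmn window of the downstream start site at chr12:102439093-102439342 (minus strand) and Ctsd at chr7:142388039-142388077 (minus strand), each written 5′ to 3′.
Ctsc: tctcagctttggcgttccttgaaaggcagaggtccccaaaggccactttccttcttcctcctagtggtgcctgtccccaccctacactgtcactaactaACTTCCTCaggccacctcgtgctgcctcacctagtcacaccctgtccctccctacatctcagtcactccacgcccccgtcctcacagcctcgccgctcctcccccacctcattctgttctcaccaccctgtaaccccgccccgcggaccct
Ctss: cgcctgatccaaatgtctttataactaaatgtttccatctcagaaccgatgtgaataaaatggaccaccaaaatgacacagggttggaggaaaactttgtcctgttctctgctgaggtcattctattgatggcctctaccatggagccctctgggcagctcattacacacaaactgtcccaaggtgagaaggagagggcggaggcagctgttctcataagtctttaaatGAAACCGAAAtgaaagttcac
Lgmn: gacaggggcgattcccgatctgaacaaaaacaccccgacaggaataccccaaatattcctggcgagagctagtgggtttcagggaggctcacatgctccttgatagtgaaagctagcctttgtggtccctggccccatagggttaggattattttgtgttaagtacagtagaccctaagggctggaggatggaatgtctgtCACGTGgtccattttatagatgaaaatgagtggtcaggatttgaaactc
Ctsd: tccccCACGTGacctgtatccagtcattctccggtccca
Counted back from -1 at the base before the start site, the Ctsc match lay at -151 to -144 on the minus strand, the Ctss match at -21 to -12, the Lgmn match at -49 to -44 and the Ctsd match shown at -245 to -240. A second Ctsd match, at -98 to -93, lies in an annotated exon. Not shown are the Ctsa match, at -12 to -7 from its downstream start site, and the Ctsl match, at -236 to -231. The windows of the upstream start sites of Ctsa and Lgmn held no CACGTG. All start sites of the CACGTG matches lie inside the gene bounds given above. The motif hits are matches of letters, and binding was not measured.

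The 10 genes took up a smaller share of all FPKM with si-Suclg2. Together they made up 4.04 ± 0.0506% of summed FPKM with si-Suclg2 and 4.87 ± 0.105% with si-nc (SD, n = 4 each), and the groups did not overlap. The mean of their sum was lower by 3922 FPKM with si-Suclg2, and the differences of the single genes with the largest size were -2026 FPKM for Ctsb, -994.5 FPKM for Ctss and -870.4 FPKM for Ctsd. The sum therefore follows these 3 genes, and it carries no test, as the genes were chosen with results known.

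By level per length, the order with si-Suclg2 was Ctsb, Ctss, Ctsd, Lgmn, Ctsz, Cst3, Ctsc, Ctsh, Ctsa and Ctsl. With si-nc the first 6 places were the same, followed by Ctsa, Ctsh, Ctsc and Ctsl. Ctsc thus stood in place 7 with si-Suclg2 and in place 9 with si-nc, while Ctsa stood in places 9 and 7. Neighbours whose ranges overlapped were Ctsc and Ctsh, and Ctsh and Ctsa, with si-Suclg2, and Lgmn and Ctsz, and Ctsc and Ctsl, with si-nc. All 10 ranked within the first 324 genes of the table by mean FPKM with si-Suclg2 and within the first 321 with si-nc.

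The level of Cst3 relative to its target proteases was lower with si-Suclg2 for 4 of them and overlapped between the groups for 3. Per 100 FPKM of Ctsc there were 172 ± 7.54 FPKM of Cst3 with si-Suclg2 and 347 ± 20.4 with si-nc (SD, n = 4 each). Per 100 FPKM of Lgmn the value was 52.6 ± 1.92 with si-Suclg2 and 73.7 ± 2.51 with si-nc, per 100 FPKM of Ctsl 288 ± 4.04 and 368 ± 29.0, and per 100 FPKM of Ctsh 183 ± 2.43 and 231 ± 14.1, in the same order of groups. For these 4 proteases the ratio was lower in every si-Suclg2 sample than in any si-nc sample. Per 100 FPKM of Ctss it was 13.2 ± 0.342 with si-Suclg2 and 13.6 ± 0.714 with si-nc, per 100 FPKM of Ctsz 77.0 ± 5.74 and 79.7 ± 2.60, and per 100 FPKM of Ctsb 9.40 ± 0.938 and 8.95 ± 0.312, with overlapping groups in each case. The ratios are given without a test, and they describe mRNA and not inhibitor or enzyme protein.

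**Figure D3:**
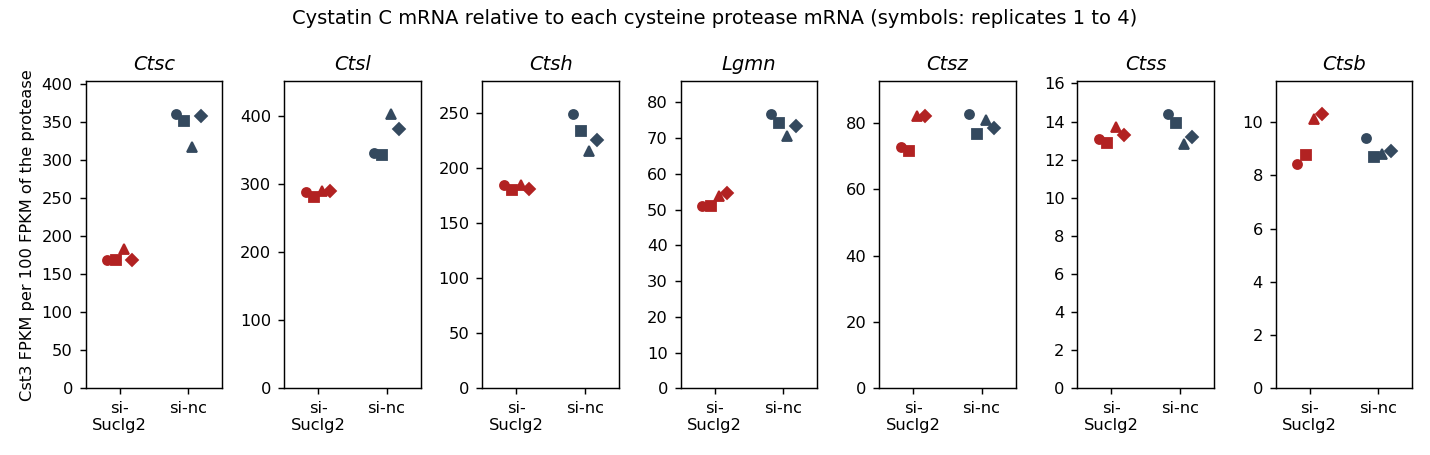
FPKM of Cst3 per 100 FPKM of each cysteine protease (vertical axes, starting at 0) in the 4 si-Suclg2 samples (red, left) and the 4 si-nc samples (blue, right). The groups are separate for Ctsc, Ctsl, Ctsh and Lgmn and overlap for Ctsz, Ctss and Ctsb.

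Within each group the samples of replicates 3 and 4 stood apart from those of replicates 1 and 2. For 7 of the 10 genes (Ctsa, Ctsc, Ctsh, Ctss, Ctsz, Lgmn and Cst3), replicates 3 and 4 were both above replicates 1 and 2 in both groups, against 19.0% of all genes tested. Ctsh was 0.22 higher on the log2 scale in replicates 3 and 4 with si-Suclg2 and 0.21 higher with si-nc, and Ctss 0.17 and 0.20 higher, in the same order. For Ctsh this step was larger than its difference between the groups. For Ctsz the steps were only 0.04 with si-Suclg2 and 0.08 with si-nc. Summed FPKM was also higher in replicates 3 and 4: 538288 and 539290 with si-Suclg2, against 511202 and 516855 in replicates 1 and 2. With si-nc the sums were 516708 and 532186, against 506241 and 510606. The steps and counts here were not rescaled for these sums. With si-nc, Ctsl and Ctsd went the other way, replicates 3 and 4 having log2 steps of -0.11 and -0.08 from replicates 1 and 2. The labels give no day, culture or run for these numbers.

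The authors' deposited table, which carries DEGseq q-values, gave a q below 0.05 for all 10 genes, and for 47.6% of all 15465 genes. In the authors' deposited table Ctsh had a log2 fold change of 0.06 with q = 2.06e-10, and Ctsl a log2 fold change of 0.07 with q = 1.45e-10. Both genes overlapped between the groups of samples, and neither passed limma. For the other 8 genes the log2 fold changes of the authors' deposited table, -0.36 for Ctsb to 0.70 for Ctsc, had the signs given above.

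The other cathepsins were scarce in these cells. Of 14 further cathepsin genes looked up, 7 were listed, 3 reached the filter, and of these 0 rose and 1 fell by limma (0 were higher and 2 lower at an unadjusted p under 0.05). Cathepsin E, an aspartic protease of endosomes, was the gene that fell: Ctse had 1.15, 1.61, 1.58 and 1.39 FPKM with si-Suclg2, against 3.01, 2.93, 3.39 and 3.91 FPKM with si-nc (log2 difference -0.82 ± 0.094 SE, limma adjusted p = 0.000253). Its groups did not overlap, at levels far below those of Ctsd, the other aspartic cathepsin. Cathepsin K, the collagen-degrading protease of osteoclasts, was at 9.89, 10.5, 15.0 and 15.0 FPKM with si-Suclg2 and 13.8, 13.9, 20.3 and 19.4 FPKM with si-nc (log2 difference -0.39, limma adjusted p = 0.115). Ctsk passed with the replicate block (limma adjusted p = 0.000135). Ctso did not pass (log2 difference -0.01, limma adjusted p = 0.947).

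Among other inhibitors, 13 of 28 genes looked up were listed and 8 tested, of which 2 rose and 0 fell by limma (2 higher and 1 lower at an unadjusted p under 0.05, and 3 higher and 1 lower with the replicate block). The median log2 difference was 0.06. Cystatin F is an inhibitor held inside the endolysosomes of immune cells and known to act on cathepsin C. Its gene Cst7 had the largest difference on log2(FPKM + 1) among the tested genes of the protease pathway lists. This ranking holds on that scale only, as the pseudocount shrinks the difference of the scarce Ctse, whose ratio of means was 0.433. Cst7 had 43.2, 36.6, 41.8 and 43.7 FPKM with si-Suclg2, against 17.2, 16.2, 20.2 and 17.6 FPKM with si-nc. The groups were far apart, with a ratio of means of 2.32 (log2 difference 1.17 ± 0.076 SE, limma adjusted p = 9.5e-06). Per 100 FPKM of Ctsc there were 10.1 ± 0.806 FPKM of Cst7 with si-Suclg2 and 7.22 ± 0.152 with si-nc (SD, n = 4 each), without overlap. Serpinb9, the inhibitor of granzyme B, rose to 20.7 ± 2.29 FPKM with si-Suclg2, against 16.6 ± 1.36 FPKM with si-nc (SD, n = 4 each; limma adjusted p = 0.0246), a call lost without si-Suclg2 replicate 1 or 2 or si-nc replicate 3 or 4 (limma adjusted p = 0.059, 0.0628, 0.0571 and 0.062). Cystatin B, the cytosolic inhibitor, did not pass: Cstb was at 829 ± 48.6 FPKM with si-Suclg2 and 818 ± 30.6 FPKM with si-nc (SD, n = 4 each; limma adjusted p = 0.853).

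Of other lysosomal peptidases and their helper proteins, 6 of 13 tested genes were lower and 1 higher, with a median log2 difference of -0.19. The 6 include the beta-galactosidase gene Glb1. With the replicate block 7 were lower and 3 higher. For this and the other lists, the shares of all genes tested were 14.9% lower and 12.0% higher. With the block, 40.5% of all genes were called and 22.5% were lower. Napsa, an aspartic protease related to cathepsin D, had 72.7, 68.0, 70.7 and 66.8 FPKM with si-Suclg2, against 115, 119, 113 and 115 FPKM with si-nc (log2 difference -0.73 ± 0.041 SE, limma adjusted p = 4.34e-06). Dpp7, a lysosomal dipeptidyl peptidase, was at 26.1 ± 1.48 FPKM with si-Suclg2 and 44.3 ± 5.87 FPKM with si-nc (SD, n = 4 each; limma adjusted p = 0.000329). Tpp1, Prcp and Scpep1 also fell, with ratios of means of 0.801, 0.728 and 0.863. The gene that rose was Rnpep, which encodes aminopeptidase B, an enzyme mainly of the secretory pathway and not of lysosomes, at 112 ± 3.0 FPKM with si-Suclg2 and 93.9 ± 0.540 FPKM with si-nc (SD, n = 4 each; limma adjusted p = 0.000891). Psap, the precursor of the saposins, missed the threshold (log2 difference -0.19, limma adjusted p = 0.0514) and passed with the replicate block (limma adjusted p = 0.0165).

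Genes of MHC class II antigen processing, including the invariant chain that cathepsins cut, showed 3 of 9 tested genes lower and 1 higher, with a median log2 difference of 0.03. The invariant chain gene Cd74 had a ratio of means of 0.573 and the class II genes H2-Aa and H2-Eb1 of 0.520 and 0.513, while Marchf1, the ligase acting on class II, had 1.25. These ratios were further from 1 than that of Ctss (0.842), without a test between genes. H2-Ab1 missed the threshold (limma adjusted p = 0.0546) and passed with the replicate block (limma adjusted p = 0.00102).

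Genes that sort lysosomal enzymes moved both ways, with 2 of 14 tested higher and 5 lower (median log2 difference -0.09), and 3 higher and 6 lower with the replicate block, which added Vps29 and Vps26a (limma adjusted p = 0.0376 and 0.0139). The large mannose 6-phosphate receptor gene Igf2r fell to 16.6 ± 2.91 FPKM with si-Suclg2, against 22.9 ± 2.19 FPKM with si-nc, while the small receptor gene M6pr rose to 188 ± 18.7 FPKM with si-Suclg2, against 157 ± 10.1 FPKM with si-nc (SD, n = 4 each; limma adjusted p = 0.0182 and 0.0308). The M6pr call was lost without si-Suclg2 replicate 3 or 4 or si-nc replicate 1 or 2 (limma adjusted p = 0.0802, 0.0761, 0.0808 and 0.0801). Igf2r did not pass without si-nc replicate 1 (limma adjusted p = 0.0503) and stood at 0.05, to rounding, without si-nc replicate 2. In each of these 2 fits 4 sorting genes were lower, against 5 with all samples. The adaptor gene Gga2, the sorting receptor gene Sort1 and the lysosomal membrane gene Scarb2 fell, with log2 differences of -0.51, -0.42 and -0.33, and Ap1b1, a subunit of the AP-1 adaptor, rose by 0.40 (SE 0.057). Of 9 transcription factor genes linked to lysosomal genes, 3 rose and 2 fell (median 0.00), and with the replicate block 3 rose and 3 fell, Tfec being added (limma adjusted p = 0.00974). Stat3, Mitf and Tfe3 rose, with log2 differences of 0.32, 0.24 and 0.12, and Nfe2l2 and Tfeb fell, with -0.48 and -0.14 (limma adjusted p = 0.0382 for Tfeb). Tfeb, Tfe3 and Mitf encode related factors that bind E-box sequences in lysosomal promoters. The Tfe3 call was lost when any sample but si-nc replicate 3 was left out (limma adjusted p up to 0.086). The Tfeb call held only without si-Suclg2 replicate 2 or si-nc replicate 4 (limma adjusted p up to 0.1 without another sample).

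**Figure D4:**
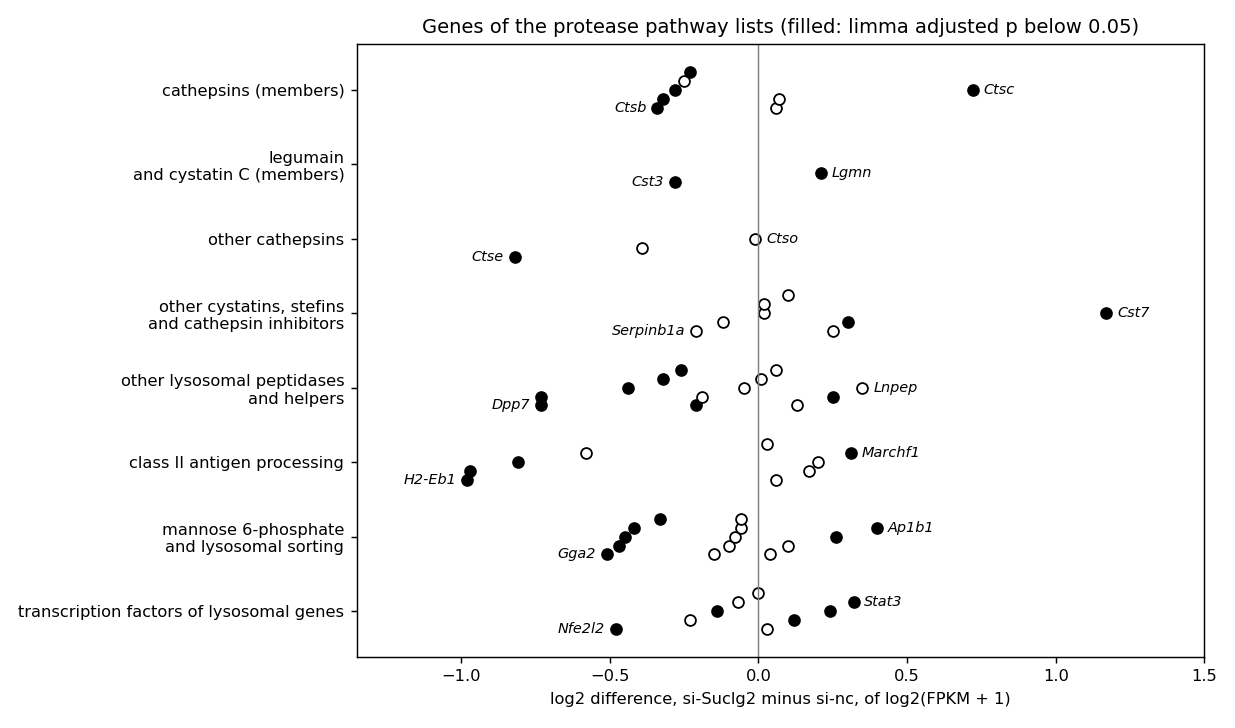
Log2 difference of log2(FPKM + 1), si-Suclg2 minus si-nc (horizontal axis), for each tested gene of 8 lists (rows; the lowest and highest gene of each is named), with filled points for limma adjusted p below 0.05. Cst7 lies furthest to the right (1.17) and H2-Eb1 furthest to the left (-0.98).

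The profile most like that of Ctsc over the 8 samples, by root mean square distance between centred log2(FPKM + 1) values, was that of Gpr35, a G protein-coupled receptor gene (distance 0.0366). Clec4a1, Irak3, Tlr1 and Sirpb1a came next, at distances of 0.0625 to 0.0698. All 5 were higher in every si-Suclg2 sample, with log2 differences of 0.61 to 0.75, which follows from picking genes by likeness to Ctsc. Gpr35 was far less abundant than Ctsc, at 11.5 ± 1.02 FPKM with si-Suclg2 and 6.71 ± 0.630 FPKM with si-nc (SD, n = 4 each). Sirpb1a and Clec4a1 have near copies in the genome that may have taken or given reads, which makes their values uncertain.

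Stroma cells can themselves express cathepsins, so their markers were read beside these results. Of 16 fibroblast markers 15 were listed and 7 tested, with 1 higher (Pdpn) and 0 lower by limma (2 higher and 1 lower at an unadjusted p under 0.05). With the replicate block 2 were higher (Pdpn and Mmp2) and 4 lower (Col1a1, Col1a2, Col3a1 and Fn1; limma adjusted p = 0.00694, 0.0353, 0.0163 and 0.0168), and each of these 4 was lower in all 4 same-numbered pairs. Col1a1 had 5.4, 3.08, 2.25 and 2.13 FPKM with si-Suclg2, against 6.94, 8.83, 3.02 and 4.64 FPKM with si-nc, and Pdgfra did not exceed 0.01 FPKM. The 15 markers summed to 45.9 to 58.7 FPKM with si-Suclg2 and 36.5 to 64.2 FPKM with si-nc. Pdpn, the highest of them, had 23.5 to 30.8 FPKM with si-Suclg2 and 16.4 to 22.9 FPKM with si-nc. The overlap of these sums therefore does not show equal stroma content. When a score of 7 stroma markers was added as a covariate, Ctsc stayed called (log2 difference 0.64), as did the 5 genes that fell, Ctss passed (limma adjusted p = 0.00526) and Lgmn did not (log2 difference 0.15, limma adjusted p = 0.0654). The score mixes markers that moved in opposite directions. With si-nc it was 2.905 and 3.014 in replicates 1 and 2, against 2.212 and 2.588 in replicates 3 and 4. With si-Suclg2 it was 2.817 and 2.355, against 2.307 and 2.138. It cannot separate a stroma part from this division of replicates, and the part of stroma cells in these results was not tested. In GENCODE M21, exons of Ctsd share 808 of 2351 bases with Gm49369 on the same strand, those of Ctsl 395 of 6489 with Gm49230 on the same strand and 1742 with Gm47123 on the opposite strand, and those of Ctsb 774 of 6051 with Fdft1 on the opposite strand. Those of Ctsa share 495 and 324 of 4715 bases with Pltp and Neurl2 on the opposite strand, and those of Ctsz 10 of 1441 with Nelfcd. Whether reads were counted by strand is not stated, and the part of these overlaps in the values was not tested.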

How the data were processed

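Total RNA of 4 si-Suclg2 and 4 si-nc samples was read by Illumina HiSeq sequencing, as the labels' protocols say. The authors deposited 1 table, which per the file headers holds 1 value for each gene in each sample and DEGseq results (log2 fold changes with their p-values and q-values). The submitters' processing notes name GRCm38.p4 and mm10 as builds; the aligner, counter and gene models used are not stated. No unit is named for the deposited sample values, and they were treated as FPKM: the reads implied by each deposited p-value, per unit of value, rose with transcript length (Spearman rho = 0.86 over 4716 genes, which are not replicates) and after division by length did not (-0.02). If they are FPKM, the implied depth is 20.6M reads per library. Depth itself is unknown, and counting intervals were left out. The sign of the deposited log2 fold change (positive where si-Suclg2 is higher) was read from the values.

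The whole table, on log2(FPKM + 1), was fitted in R 4.3.3 by limma 3.58.1, with a variance trend and group as the only term, over 10176 genes with a mean of at least 1 FPKM in a group. The pseudocount understates changes of low genes. The script was tested on simulated data. Symbols that a spreadsheet had turned into dates (22) were restored by gene ID. The gene set and lists were chosen with earlier results of these data known. Named beyond the 10 genes and Suclg2 were, per list, up to 4 called genes with the smallest adjusted p, and the 5 nearest profiles to the gene with the smallest p; Neu1, Ctsk, Ctso, Cstb, Psap, H2-Ab1, Tpp1, Prcp, Scpep1, Igf2r, M6pr, Tfeb, Vps29, Vps26a, Tfec and the markers were added after their values were seen.

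Same-numbered samples of the groups deviated together (r of 0.40 to 0.55 across genes, each above 0.1). On that ground, and not from the labels, blocked values stand beside the calls of named genes and the list counts they change. Differently numbered samples within 1 and 2, and within 3 and 4, deviated together as strongly (r of 0.44 to 0.56), and between these subsets r was -0.57 to -0.35. The data thus show replicates 1 and 2 apart from 3 and 4, and do not show pairing by single numbers. Blocked values and counts of same-numbered pairs therefore rest on this division of replicates and not on known pairs. Alternatives covered pseudocount, filters, scalings, the block, samples left out, subsets of replicates and a stroma score; the fit with the division of replicates as a term, and its interaction with group, was added after seeing the data.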

Additional observations from a re-analysis of the deposited data

Results flagged for a closer look

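Dpp7 in si-Suclg2 replicate 3 was at 28.4 FPKM, apart from the other samples of its group, with a gap to the nearest of 0.871 of the group's range, above Dixon's critical value for 4 samples. It was the only value set apart among 70 groups of 4 samples looked at, 2 for each of 35 genes (the 10 genes, Suclg2, 19 genes of the lists and 5 with profiles near Ctsc); the other genes named in the text were not looked at in this way, where chance alone would set apart about 1 group in 20. The value still lay below all si-nc samples of Dpp7.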

How the results depend on the processing

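Directions held for Ctsa, Ctsb, Ctsc, Ctsd, Ctss, Ctsz, Lgmn, Cst3 and Suclg2 under every alternative run, except that Suclg2 was below the filter of 5 FPKM and was not tested under it. Ctsa, Ctsc, Ctsz, Cst3 and Suclg2 also kept their calls wherever they were tested. Ctsh turned to -0.03 with the stroma score, and Ctsl to -8.2e-05 after quantile normalization and -0.08 with replicates 1 and 2 alone, against 0.23 and a call with replicates 3 and 4 alone. Without a filter on low values Ctsb (-0.34), Ctsd (-0.28) and Lgmn (0.21) were not called, the SE of Ctsb being 0.14 there, and quantile normalization left Ctsb at -0.02. The stroma score left Lgmn at 0.15, uncalled. Ctss was called at -0.25 with a filter of at least 5 FPKM, with the replicate block and with the division as a term, at -0.27 with a common column sum, -0.32 after quantile normalization, -0.23 and -0.26 in the subsets of replicates, and -0.33 with the stroma score. Leaving out 1 sample gave 0.17 to 0.24 for Lgmn.

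With the replicate block 1832 genes rose and 2294 fell, and with the division as a term 1995 and 2539, against 1221 and 1519 without. The block brought Ctss to a call and changed no other call of the 10 genes. Of the 10 genes 1 rose without a filter or with the stroma score, 3 fell without a filter, and 1 to 2 rose when a sample was left out. Over all genes, 1124 rose and 1396 fell of 15449 tested without a filter. With the stroma score 1270 rose and 1657 fell of 10176, and with a sample left out 955 to 1175 rose. Of the further cathepsins 0 fell with the filter of 5 FPKM, and 2 with the block, the division, either subset of replicates or the stroma score. Of the inhibitors 1 rose with a common column sum, 4 with replicates 1 and 2, and 1 to 2 with a sample left out; 1 fell with a common column sum, quantile normalization, the block, the division, or replicates 1 and 2. Of the peptidases 2 rose with median ratio scaling, either subset or the stroma score, 3 with the block or the division, and 1 to 2 with a sample left out. Of the sorting genes 1 rose without a filter or after quantile normalization, and 1 to 2 with a sample left out. Of the transcription factor genes 1 rose with a common column sum or replicates 3 and 4, 1 fell with median ratio scaling or replicates 3 and 4, and 1 to 2 fell with a sample left out. Of the named genes outside the 10, and beside samples left out, calls were lost with a common column sum (Serpinb9, Mitf and Tfe3), quantile normalization (Tfe3 and M6pr), median ratio scaling (Tfeb), no filter (M6pr), the stroma score (Tfe3 and Tfeb) and replicates 3 and 4 alone (Mitf, Tfe3 and Tfeb); the other genes added after their values were seen were not followed through the alternatives, except Igf2r. The causes were not tested. No counts were given, so depth could not be weighed gene by gene.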
